A study of Homo sapiens with 14 samples.

Results

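Distal p-JUN sites without histone marks were examined in LX-2, a human cell line derived from hepatic stellate cells and labelled wild type, after 2 days of culture. The 4 p-JUN lists, 2 from cells labelled as cultured on soft matrix (2K in the titles) and 2 from cells labelled stiff, were merged into 61411 regions wherever peaks shared at least 1 bp. A region was a member when it was called in all 4 lists, lay more than 3 kb from every start of a protein-coding transcript, and overlapped no peak of H3K27ac, H3K4me3 or H3K27me3 in any list of either matrix. This left 19667 members of 40433 regions called in all 4 lists (48.6%), and of 31309 such regions away from coding starts (62.8%). The members were thus chosen by the p-JUN calls and by the histone calls, and neither their being called in every p-JUN list nor their lack of histone peaks is a finding. The stiff p-JUN libraries carry TCP in their titles, which the study uses for tissue culture plastic, where the stiff histone libraries carry 40K. The p-JUN contrast is therefore between libraries labelled soft and libraries labelled stiff, and plastic and stiff matrix cannot be told apart in it. The labels do not say whether replicates came from separate cultures, so p-values measure only the spread between these libraries.

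JUN is a basic leucine zipper protein that pairs with FOS, FRA and ATF proteins into the AP-1 dimer, and its phosphorylation by JNK raises its activity as a transcription factor. The core AP-1 site reads TGACTCA, or TGAGTCA on the other strand. Many AP-1 sites lie far from promoters. H3K27ac marks active enhancers and promoters, H3K4me3 marks promoters and H3K27me3 marks chromatin held silent by Polycomb. In stellate cells AP-1 is known for its part in the response to injury, growth factors and tension.

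To show the site itself, 101 reference bases (hg19, GRCh37, plus strand, 5′ to 3′) around the highest p-JUN summit are printed for 7 members that hold it, with each exact AP-1 motif in capitals. The first pair are the members with the most fragments of all, the next is among the strongest outside repeats, then come the strongest members of the AP-1 family, integrin and synapse gene lists, and last the member in GIGYF2, shown for its difference between matrices.
intron of PTPRN2, chr7:157726228-157726328: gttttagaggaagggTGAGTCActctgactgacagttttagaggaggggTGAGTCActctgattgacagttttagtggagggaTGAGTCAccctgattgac
intron of the noncoding gene LINC02369, chr12:128597966-128598066: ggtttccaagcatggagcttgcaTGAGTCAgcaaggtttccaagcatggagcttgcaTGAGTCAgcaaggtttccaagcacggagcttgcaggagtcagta
intron of RARA, chr17:38471003-38471103: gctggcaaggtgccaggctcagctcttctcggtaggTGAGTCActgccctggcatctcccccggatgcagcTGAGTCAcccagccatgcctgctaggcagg
intron of the noncoding gene LINC01135, 97.2 kb from the JUN start, chr1:59347250-59347350: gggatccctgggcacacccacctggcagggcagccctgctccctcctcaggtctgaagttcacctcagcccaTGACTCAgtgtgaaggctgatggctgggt
intron of ITGA11, chr15:68647352-68647452: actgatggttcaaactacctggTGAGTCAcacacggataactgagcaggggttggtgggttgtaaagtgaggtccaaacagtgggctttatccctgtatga
intron of NRXN3, chr14:79511763-79511863: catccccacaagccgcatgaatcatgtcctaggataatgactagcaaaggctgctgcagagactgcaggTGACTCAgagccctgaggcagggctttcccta
intron of GIGYF2, chr2:233646576-233646676: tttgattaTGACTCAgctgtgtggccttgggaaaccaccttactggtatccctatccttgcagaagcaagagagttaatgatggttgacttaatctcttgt

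The lists limit what lack of a mark can mean. The median peak held 26 to 27 fragments at its summit in the H3K27ac lists, 60 to 64 in the p-JUN lists and 120 to 207 in the H3K4me3 lists. H3K27ac was given as 1 merged list per matrix, with 18238 soft and 13322 stiff peaks, so its replicate error is unknown. A region without an H3K27ac peak is thus one where no peak was called at this depth. The label of the cells was checked through H3K4me3 within 1 kb of the starts of marker genes. It was called in all 4 libraries at 8 of 12 stellate and mesenchymal genes, among them PDGFRB, ACTA2, COL1A1 and VIM, but not at COL1A2, DES, LRAT or HAND2. It was called there at 0 of 6 hepatocyte and 0 of 6 immune genes, at 2 of 4 endothelial genes (KDR and TIE1) and at 2 of 5 cholangiocyte and epithelial genes (EPCAM and SOX9). PECAM1 was not analysed here. The peak lists carry no read totals, so depth is given as fragments at summits.

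The members held fewer p-JUN fragments at their summits than distal acetylated regions. The fragments at a summit, a count of sequenced DNA pieces that cover it, were recovered from the deposited fold and p of each peak. The median member held 70 fragments in soft 1, 60 in soft 2, 66 in stiff 1 and 75 in stiff 2. The 6350 distal regions that overlapped an H3K27ac peak in both lists held 173, 152, 155 and 183 in the same order. In every library the members were lower, at a log2 ratio of medians of -1.29 ± 0.05 (SD, n = 4 libraries). This ratio gave the smallest p that the two-sided exact sign-flip permutation test over 4 libraries can reach, 0.13, so the design cannot pass 0.05. The members were also narrower, at a median of 611 bp against 844.5 bp, and a wide region has more room to overlap a histone peak, so the part of width in this difference was not tested. The 6255 regions within 3 kb of a coding start that had H3K4me3 in all 4 libraries held 63, 55, 46 and 60. The members lay above them in each library, at a log2 ratio of medians of 0.28 ± 0.18 (SD, n = 4; exact sign-flip permutation p = 0.13). The members' fragments ran from 14 to 1552, with 39 members above 500 in every library against 400 acetylated regions. By the deposited fold enrichment the classes lay closer together. Its medians in soft 1, soft 2, stiff 1 and stiff 2 were 8.82, 8.67, 8.76 and 9.50 for members. They were 10.06, 10.11, 9.95 and 10.83 for acetylated regions, and 7.70, 7.70, 7.15 and 8.18 for promoters.

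**Figure D1:**
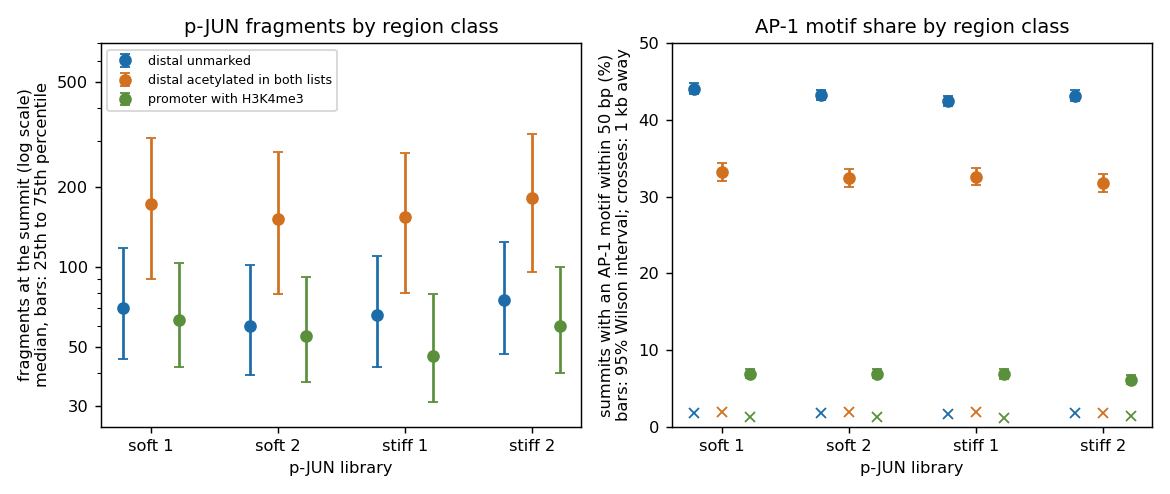
Left, fragments at the p-JUN summit (log axis) in each of the 4 libraries for distal unmarked members, distal acetylated regions and promoters with H3K4me3, as medians with bars from the 25th to the 75th percentile; right, the share of the library's own summits with an AP-1 motif within 50 bp, with 95% Wilson intervals, and crosses for positions 1 kb away. In all 4 libraries the members lie below the acetylated regions in fragments and above both other classes in motif share.

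Together the members held 34.2% of all p-JUN summit fragments in soft 1, 34.6% in soft 2, 36.3% in stiff 1 and 34.4% in stiff 2. The soft mean was 34.4% ± 0.230 and the stiff mean 35.3% ± 1.40 (SD, n = 2 each), with 1 stiff library between both soft ones (two-sided exact permutation test, p = 0.667, the smallest possible being 0.333). Across distal regions called in all 4 lists, the part that were members fell with the p-JUN level. It was 78.8% of the regions with a mean under 40 fragments, 50.3% of those with 140 to 220, and 1181 of the 4372 with 220 or more.

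Of the motifs searched, AP-1 had the highest share in the members. An exact AP-1 motif had its centre within 50 bp of the highest summit at 8657 members (44.02%, 95% Wilson interval 43.3 to 44.7, which covers counting error only). It was present at 1.74% of positions 1 kb to either side of them. The share was 34.8% over all regions called in all 4 lists, 32.4% at distal acetylated regions and 6.84% at promoters with H3K4me3. Anywhere within the region, which has a median width of 611 bp for the members and 844.5 bp for the acetylated regions, the motif was present at 68.9% of members and 62.7% of acetylated regions.

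The difference from acetylated regions was present in each library with its own summits. The members had 44.1%, 43.3%, 42.5% and 43.2% in soft 1, soft 2, stiff 1 and stiff 2, and the acetylated regions 33.2%, 32.4%, 32.6% and 31.8%. All 4 member shares lay above all 4 acetylated shares. The difference of 10.8 ± 0.64 percentage points (SD, n = 4) again gave the smallest p the two-sided exact sign-flip permutation test allows, 0.13. The 4 libraries were read at the same regions and differ only in the summit position, so the 4 shares are not independent. In a window of 25 bp the difference was 4.88 percentage points, and the members' share at their highest summits 20.6%. By matrix, the mean over both soft libraries was 43.7% ± 0.575 and that over both stiff ones 42.8% ± 0.485 (SD, n = 2 each), a difference with the smallest p that the exact permutation test allows, 0.333.

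The share rose with the p-JUN level in both classes and was higher in the members at every level. Among members it went from 35.4% under 40 fragments to 59.7% at 220 or more, and among acetylated regions from 10.9% to 43.6%. The members with the motif had a median of 81, 69, 74 and 82 fragments in soft 1, soft 2, stiff 1 and stiff 2, and those without it 63, 54, 61 and 70. Of the 1000 members with most fragments 608 held the motif, and of the 1000 with fewest 300. Base composition differed too, with a median GC content of 43.5% in the sequence around the summit for members, 47.9% for acetylated regions and 64.3% for promoters, and its part in the motif shares was not tested. Within the members GC content was 43.9% with the motif and 43.1% without.

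**Figure D2:**
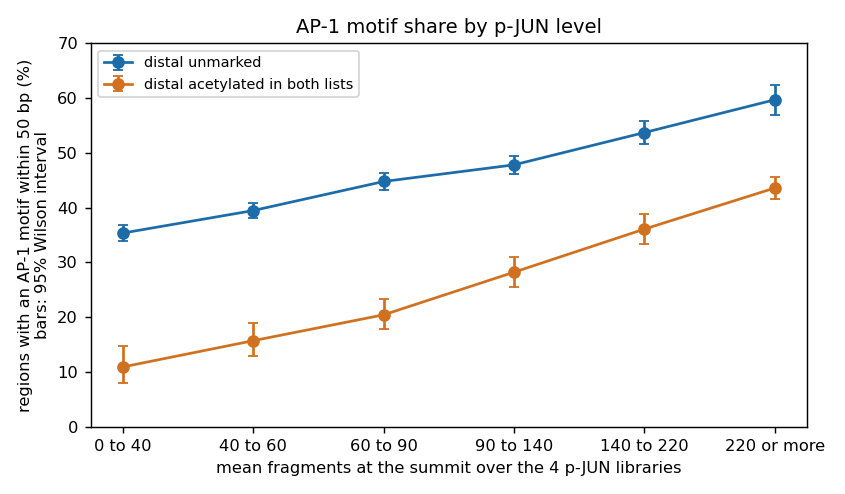
Share of regions with an AP-1 motif within 50 bp of the highest summit (vertical axis, percent, with 95% Wilson intervals) by mean fragments at the summit over the 4 p-JUN libraries (horizontal axis, 6 bins), for distal unmarked members and distal acetylated regions. Both lines rise, and the members' line is the higher in each bin, at 35.4% against 10.9% in the lowest and 59.7% against 43.6% in the highest.

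The motif sat beside the summit rather than under it. In the 8657 members that held it, its centre lay a median of 26 bp from the summit, with 9.71% within 10 bp. Only motifs within 50 bp enter this median, so the window largely sets it, and the position is read from the bins. Counted in bins of 10 bp, motifs peaked at 90.7 per 1000 members in the bin from 30 to 20 bp before the summit and at 86.9 in the bin from 20 to 30 bp after it. The bins next to the summit held 19.0 and 22.4. Acetylated regions had the same median distance, 26 bp, within the same window. In the sequences above, the motif centre lies 25 bp after the summit near JUN and 22 bp after it in NRXN3. A pair of motifs lay in this window at 790 members (4.02%) and 3 or more at 62, against 2.68% with a pair at acetylated regions.

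**Figure D3:**
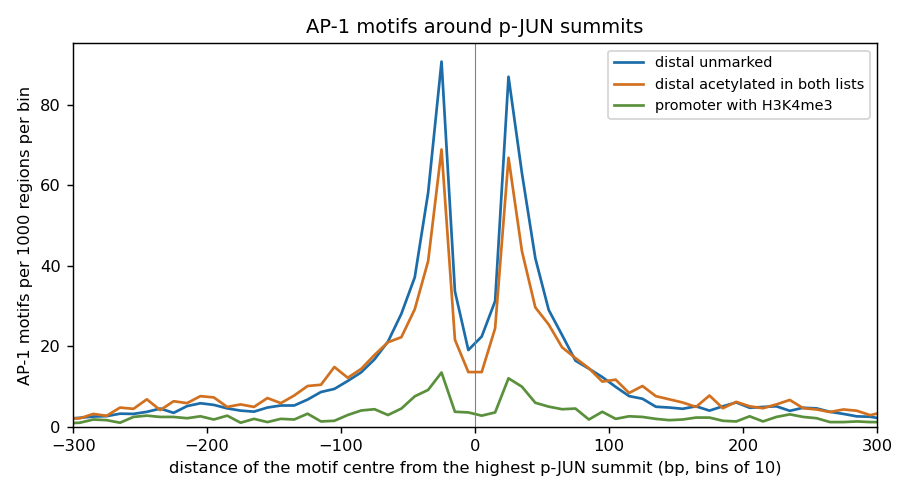
AP-1 motifs per 1000 regions in 10 bp bins (vertical axis) by distance of the motif centre from the highest p-JUN summit in bp (horizontal axis), for distal unmarked members, distal acetylated regions and promoters with H3K4me3. All 3 curves have maxima on either side of the summit, and the members' are the highest, at 90.7 and 86.9 per 1000.

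The bases that flank the motif differed between classes as well. ATGACTCAT was the most frequent 9-base form in the members, at 1252 of the 8657 with a motif (14.5%), against 7.14% of 2060 acetylated regions with a motif and 7.25% of 717 motifs found 1 kb away. In the acetylated regions GTGACTCAG was the most frequent, at 13.0%, against 7.61% in the members. GTGACTCAT came next in the members, at 12.6%, against 9.90%. CTGACTCAG, the most frequent of these forms 1 kb away (9.76%), had 4.61% in the members.

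Of the 11010 members with no exact motif, many held a form with a single base changed. TGAATCA was present within 50 bp of the summit at 14.4% of them, against 1.76% at positions 1 kb away. TGACTAA was at 12.02% against 1.26%, TTACTCA at 7.77% against 1.63%, and TGACACA at 6.57% against 1.69%. These 4 forms were also above their flanks at acetylated regions without the motif, at 9.93%, 7.69%, 5.17% and 4.22%. Changes of the third base, A, with the site read as TGACTCA, went the other way, with TGGCTCA at 3.74% against 5.28% in the flanks and TGCCTCA at 3.00% against 4.53%. TGACGCA, rare in the flanks at 0.173%, was at 1.35%. On the other strand TGACGCA reads TGCGTCA and TGACACA reads TGTGTCA. Both thus change the third base of TGAGTCA, and both lay above their flanks. Examples are the intron of DIP2C, where the summit lies in a tandem array that repeats TGACTAA, and the intron of GFOD1, which holds it once, both in lower case because it is not the exact motif.
intron of DIP2C, chr10:471159-471259: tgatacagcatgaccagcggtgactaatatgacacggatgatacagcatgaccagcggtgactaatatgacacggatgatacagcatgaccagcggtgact
intron of GFOD1, chr6:13481206-13481306: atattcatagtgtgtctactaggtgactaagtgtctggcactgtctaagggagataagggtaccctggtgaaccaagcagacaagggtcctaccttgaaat

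Other motifs were rarer and were searched on both strands in the same window. GGAATG, the site of the TEAD factors that act with YAP and TAZ, was at 10.6% of members against 5.74% in their flanks, and at 12.5% of acetylated regions. TGTGGTT, bound by RUNX factors, was at 3.16% against 1.94%. The CRE motif TGACGTCA, bound by ATF and CREB dimers, was at 0.386% of members, 0.567% of acetylated regions and 2.93% of promoters. GGGCGG, the SP and KLF site, was at 1.79% of members, 3.87% of acetylated regions and 30.9% of promoters. The CTCF motif, which marks insulator and loop anchor sites, was at 30 members (0.153%) and at 0 of 6350 acetylated regions, which allows a share of up to 0.0472% there. AGATAA, bound by GATA factors, was below its flanks in the members, at 5.78% against 7.07%. The motif TGACTCAGC, which contains the AP-1 motif and extends it to the MAF form, was at 3.45% of members and 4.28% of acetylated regions. A TEAD motif was at 866 of the 8657 members with AP-1 and at 1211 of the 11010 without.

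The members were spread over introns and the space between genes. By the base under the highest summit, 44.4% were in an intron of a coding gene, 35.4% between genes, 14.8% in an intron and 2.24% in an exon of a noncoding gene, and 3.18% in an exon of a coding gene. Acetylated distal regions had 44.9% in coding introns and 32.5% between genes. Within 1 kb of the start of a noncoding gene there were 5.30% of members and 10.9% of acetylated regions. The nearest coding start lay a median of 45.4 kb away for members and 33.4 kb for acetylated regions. AP-1 shares differed little by place, from 40.6% in coding exons to 47.7% in noncoding exons, with 43.4% in coding introns and 45.0% between genes.

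Most members were far from any called mark. The nearest H3K27ac peak was a median of 39.1 kb away, the nearest H3K4me3 peak 51.6 kb and the nearest H3K27me3 peak 157.0 kb. An H3K27ac peak lay within 3 kb of 1187 members (6.04%), within 10 kb of 3997 (20.3%) and within 100 kb of 14264 (72.5%). Over all regions called in all 4 lists the same shares were 43.8%, 52.6% and 84.5%. These include the 39.4% that overlapped an H3K27ac peak, which the rule keeps out of the members. The members within 3 kb of H3K27ac had more p-JUN fragments, with a median of 113 over the 4 libraries against 59.7 for the 5403 that were over 100 kb away. Their AP-1 share went in the other direction, from 39.7% within 3 kb to 45.6% beyond 100 kb. Other members were often near, as 5428 (27.6%) had another within 10 kb and the median gap to the next was 26.3 kb. The longest chains with gaps of up to 10 kb had 6 members, and there were 4 of these, on chromosomes 2, 5, 14 and 20. The chain at chr14:101438463-101468307 spanned 29.8 kb and had the AP-1 motif at 3 of its 6 members.

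By chromosome, members made up from 26.7% of the regions called in all 4 lists on chromosome 19 to 60.2% on chromosome 4 among the autosomes. Chromosome 17 had most for its length, 9.54 per Mb of determined bases, and chromosome 19 had 4.84. AP-1 shares over the autosomes ran from 39.8% of 665 members on chromosome 13 to 49.6% of 248 on chromosome 22.

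The strongest members were a mixed group. The highest was chr7:157725247-157726771 in an intron of PTPRN2, a receptor-type tyrosine phosphatase family member of secretory vesicles, with 1552 fragments in soft 1, 1321 in soft 2, 1365 in stiff 1 and 1493 in stiff 2. It holds 3 AP-1 motifs around its summit, in the repeats visible in its sequence above. The LINC02369 member at chr12:128597382-128598397 had 1379, 1215, 1198 and 1386 fragments in soft 1, soft 2, stiff 1 and stiff 2. It lies 47 bp from an H3K4me3 peak and 0.767 kb from an H3K27ac peak. The third, chr5:23526913-23528131 in an exon of PRDM9, the zinc finger methyltransferase that places recombination hotspots, had 1400, 1226, 1052 and 1263 and no AP-1 motif in the window. The DIP2C member at chr10:470852-471638 had 898 and 801 on soft and 1011 and 1083 on stiff, so that its groups did not overlap before scaling. After centring on each library's median its difference was 0.247 on the log2 scale, stiff minus soft, and was not called (limma, adjusted p = 0.269). The first 3 of these were the members with over 1000 fragments in every library.

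Repeated sequence was common among them. In the sequence around the summit, 12-base words that occur there more than once made up 96.3% of words at PTPRN2, 87.3% at LINC02369, 68.0% at PRDM9 and 91.6% at DIP2C. Over 10% of words were repeated at 396 members (2.01%), a share close to the 1.98% of all regions called in all 4 lists, but at 6 of the 20 members with most fragments and at 14 of the highest 100. How many copies of such repeats these cells carry was not measured, and its part in the fragment counts was not tested. Outside repeats, the strongest members included chr17:64271721-64272946 between genes near APOH, with 891, 811, 787 and 869 fragments. The member chr17:38470362-38471328, in an intron of RARA, the retinoic acid receptor alpha gene, had 915, 792, 727 and 817, and lies 3.21 kb from a coding start and 2.99 kb from an H3K4me3 peak. Before scaling, in both of these the lower stiff library lay below both soft libraries and the other stiff library between them. After centring on each library's median, both soft libraries lay above both stiff at each. The differences were -0.10 near APOH and -0.20 in RARA on the log2 scale, stiff minus soft, and neither was called.

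**Figure D4:**
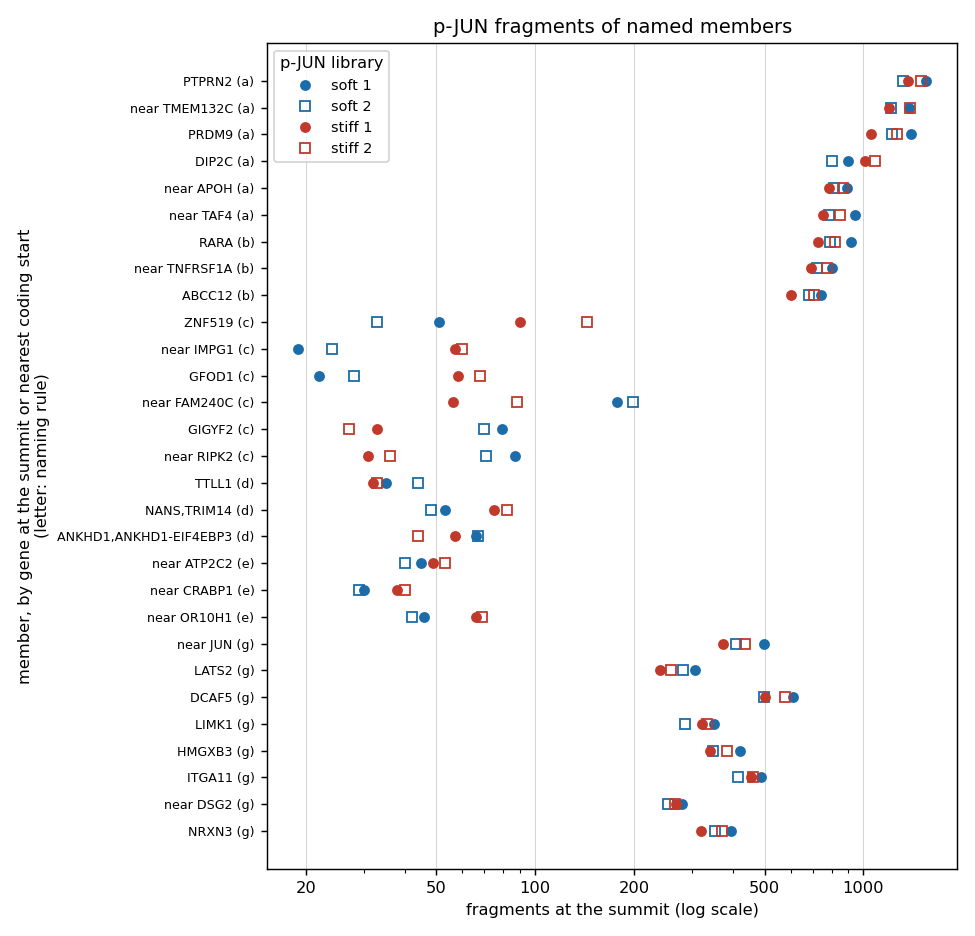
Fragments at the summit (horizontal log axis) of 29 named members in the 4 p-JUN libraries, blue for soft and red for stiff, filled for replicate 1 and open for replicate 2; rows are named by the coding gene at the summit or the nearest coding start, with the letter of the naming rule. Only the rows of rule c, chosen for their difference between matrices, and a few of rules d and e have soft and stiff symbols well apart.

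Members lay in or near many genes of stellate cell biology, and mostly where genes are long. The gene bodies with most members were those of RUNX1, a transcription factor of blood and mesenchymal cells, with 36 members of 60 regions called in all 4 lists, and CDH13, a cadherin without a cytoplasmic domain, with 34 of 37. NRG1, a ligand of ERBB receptors, and PDE4D, a cyclic AMP phosphodiesterase, had 25 each. TENM2, a teneurin adhesion protein, had 23, NRXN3, a synaptic adhesion protein, 22, TBC1D5 20, LPP and PRKCA 19 each and ASIC2 17. LPP is a focal adhesion protein and PRKCA a protein kinase C. These 10 genes run from 508 to 1698 kb, and per 100 kb PRKCA had most, 3.74. Of all 20136 coding genes, 23.2% had a member in the body. The share was 0.914% of genes up to 10 kb, 28.8% of those from 30 to 100 kb and 79.1% of those over 300 kb.

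Gene lists are given with their median lengths, and were not matched to all coding genes by length. Within the body or 100 kb of a coding start there was a member for 18 of 20 AP-1 family genes (JUNB and FOS had none), 13 of 16 genes of the YAP and TEAD pathway and 18 of 19 contractile genes. There was one for 23 of 28 matrix genes, 15 of 17 matrix turnover genes, 15 of 18 genes of TGF-beta and PDGF signalling and 17 of 19 integrin and focal adhesion genes. The same held for 8 of 12 hepatocyte genes, 9 of 12 synapse genes and 69.0% of all coding genes. In the body alone, 5 of 20 AP-1, 10 of 16 YAP and TEAD and 6 of 19 contractile genes had a member. So did 15 of 28 matrix, 7 of 17 matrix turnover and 9 of 18 TGF-beta and PDGF genes. The counts were 11 of 19 for integrin and focal adhesion, 1 of 12 for hepatocyte (HNF4A) and 9 of 12 for synapse genes. Median lengths in this order were 10.9, 51.2, 29.3, 59.2, 12.1, 62.7, 118.5, 25.8 and 566 kb.

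Among the AP-1 genes, FOSL2, which encodes FRA2, had 8 members in the body or within 100 kb of a coding start, 3 of them with the motif. ATF3, a stress-induced partner, had 5 by the same count, and each of these 2 genes had 1 in its body. JUN itself had 2, none in its body. The stronger, chr1:59346877-59347669, lies 97.2 kb from its start and has the motif 25 bp after the summit. It held 497, 410, 374 and 436 fragments in soft 1, soft 2, stiff 1 and stiff 2, ranges that overlap before scaling. After centring on each library's median both soft libraries lay above both stiff, at a difference of -0.217 on the log2 scale (limma, adjusted p = 0.307). Of matrix genes, COL4A2 had 10 members in its body with 6 acetylated regions beside them, COL5A2 had 6 in its body and COL8A1 and COL15A1 5 each in theirs, all of them collagens. COL6A3, a collagen VI chain, had 8 members nearby and none in its body, and TNC, the matricellular protein tenascin-C, 10 with 2 in the body. Of the turnover genes, PLAU, the urokinase plasminogen activator, had 7 members nearby, 6 with the motif, and MMP16, a membrane-bound metalloproteinase, had 8 in its body.

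ITGA11, the collagen-binding integrin alpha 11, held chr15:68646753-68647739 with 487, 415, 455 and 462 fragments in overlapping groups, 1.39 kb from an H3K27ac peak. TGFBR2, the type II TGF-beta receptor, had 10 members, 3 of them in its body, and TGFBR3, SMAD3 and LATS2, a kinase that restrains YAP, had 6, 5 and 4 in theirs. Among integrins, ITGA2 had 7 in its body. LPP had most of the focal adhesion list, 21 in the body or within 100 kb of a coding start, of which 8 carried the motif. The AP-1 share of the members near a list ran from 26.2% for TGF-beta and PDGF signalling (61 members) to 47.1% for matrix genes (104 members), beside 44.02% over all members.

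Soft and stiff libraries were compared at all 40433 regions called in all 4 lists by limma on log2 fragments, each library centred on its median. No region passed an adjusted p of 0.05, a background of 0.0%, and so none of the members did. The lowest adjusted p was 0.0628, and at an unadjusted p under 0.05 there were 4129 regions higher on stiff (10.2%) and 5219 higher on soft (12.9%). The members had 2796 (14.2%) and 1886 (9.59%). Without centring the members had 2227 (11.3%) and 636 (3.23%), beside 7.9% and 4.09% of all regions. The count of 0 past the adjusted p changed with the fit. With a trend of variance on level 1545 members (7.86%) passed as higher on stiff and 899 (4.57%) as higher on soft, beside 6.15% and 7.37% of all regions. Among the 28743 regions with a mean of at least 50 fragments, 680 members (5.17%) and 228 (1.73%) passed, beside 3.59% and 2.22% of all those regions.

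Every member was called in all 4 lists by rule, so regions called on 1 matrix alone are not among them, and centring sets the median level of all regions to the same value in each library. Within these limits the members' median difference was 0.01 on the log2 scale, stiff minus soft, with an interquartile range from -0.16 to 0.21, beside -0.05 for acetylated regions, -0.21 for promoters and -0.05 over all regions tested. Without centring it was 0.0669, and without stiff replicate 1 it was -0.02. Over 1.5-fold, 744 members (3.78%) were higher on stiff and 316 (1.61%) on soft, beside 2.54% and 1.88% of all regions. Over 2-fold there were 46 (0.234%) and 8 (0.0407%), beside 0.131% and 0.047%. Both stiff libraries lay above both soft libraries at 5630 members (28.6%), against 22.5% of all regions. Both soft libraries lay above both stiff at 4938 (25.1%), against 33.3% of all regions and 52.6% of promoters. Log2 fragments of the members correlated over regions at 0.972 between the soft libraries, 0.967 between the stiff and 0.931 to 0.945 across, a description in which the points share their libraries. The SD of the difference between replicates fell with level, from 0.300 in the lowest of 4 equal groups of members by level to 0.137 in the highest on soft, and from 0.319 to 0.164 on stiff.

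Motifs differed with the direction of the difference, which is described here with no test. AP-1 was at 53.2% of the members with both soft libraries higher, 45.3% of those that overlapped and 33.9% of those with both stiff libraries higher. The order held in each of the 4 groups by level, from 42.4%, 36.4% and 28.1% in the lowest to 62.9%, 54.5% and 41.4% in the highest. Acetylated regions had 43.8%, 29.2% and 20.3%, but in the lowest group by level 10.4%, 14.03% and 6.98%, so that the order did not hold there. TEAD motifs ran the other way, at 8.30%, 9.90% and 13.6% of members and 9.15%, 12.8% and 17.0% of acetylated regions. The members with a motif had a median difference of -0.04 and those without one 0.05 on the log2 scale. An H3K27ac peak lay within 10 kb of 21.0% of the soft-higher and 20.4% of the stiff-higher members, and 43.0% and 44.7% were in coding introns.

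**Figure D5:**
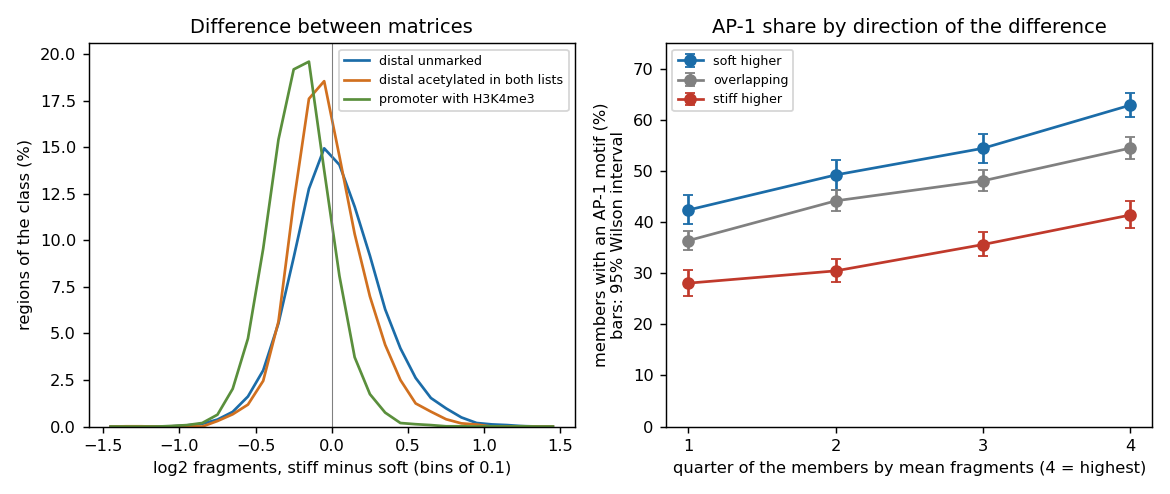
Left, the share of regions of each class (percent) by log2 fragments, stiff minus soft, in bins of 0.1; right, the share of members with an AP-1 motif (percent, 95% Wilson intervals) in 4 equal groups of p-JUN level, for members with both soft libraries higher, both stiff libraries higher, or overlapping libraries. The members' curve is centred near 0 and the promoters' to its left, and in each group the soft-higher members have the highest motif share and the stiff-higher members the lowest.

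The members with the widest gaps differed in level and in repeated words. Among those higher on stiff, chr18:14105032-14105788 in an exon of ZNF519, a zinc finger gene, had 51, 33, 90 and 144 fragments in soft 1, soft 2, stiff 1 and stiff 2, a difference of 1.42 ± 0.20 (SE) on the log2 scale (limma, adjusted p = 0.0628). The member chr6:77412891-77413687, between genes, had 19 and 24 against 57 and 60. The one at chr6:13480879-13481714 in an intron of GFOD1 had 22 and 28 against 58 and 68, with TGACTAA in the sequence printed above. Among those higher on soft, chr2:242951633-242952617 in LINC01237 had 178 and 199 against 56 and 88, with 93.5% repeated words and an H3K27ac peak 0.724 kb away. The member chr2:233646526-233646868 in an intron of GIGYF2, a translational repressor gene, had 79 and 70 against 33 and 27, with the exact motif shown above. The third, chr8:90486112-90486891, had 87 and 71 against 31 and 36. Both it and the GIGYF2 member had no repeated words. They lay above the members' medians of 70 and 60 on soft, and below those of 66 and 75 on stiff. In all 6 the groups do not overlap, as their choice required, and all 6 share the adjusted p of 0.0628.

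The regions on either side of the limits of the rule are given as values. The members nearest above 3 kb lay 3003, 3005 and 3006 bp from the starts of TTLL1, NANS and ANKHD1, with means of 35.7, 62.9 and 57.7 fragments. The regions nearest below it lay 2999, 2997 and 2992 bp from AKIRIN2, STAR and PALLD, with 81.6, 45.4 and 49.95. A histone peak lay within 1 kb of 446 members, and the nearest, at chr16:84390824-84391338, touched an H3K27me3 peak. It held 45, 40, 49 and 53 fragments. Regions without marks and away from coding starts that were called in fewer lists had lower AP-1 shares, 24.9% of 6110 in 1 list, 28.9% of 4114 in 2 and 34.2% of 3962 in 3.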

How the data were processed

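CUT&Tag, in which an antibody directs a transposase to cut the DNA around its target, was run on LX-2 cells with antibodies to p-JUN (4 libraries), H3K4me3 (4), H3K27me3 (4) and H3K27ac, given as 1 merged list per matrix. Per the labels and methods, the authors trimmed reads with Trim Galore, aligned them to hg19 with Bowtie2 and marked duplicates with Picard. Versions, and the caller's version, options and control, are not given in the sources used here. The deposited lists have the layout of MACS2 and hold, for each peak, a score, a fold enrichment, and p and q as −log10 values, as the authors' caller gave them, with no scaling between lists. The score was not used. The narrow lists reach down to a −log10 q of about 5 and the H3K27me3 lists to about 1.31.

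Whole fragments at each summit were solved from the deposited fold and −log10 p under the caller's Poisson model (relative error under 0.0001 for 99.87% or more of the peaks of every narrow list). Peaks on the 24 standard chromosomes were merged with 1 bp of overlap, starts came from GENCODE 44 mapped to GRCh37, and motifs were searched on both strands of GRCh37 with the motif centre within 50 bp of the highest summit. Flanks are windows 1 kb to either side. Repeated words were counted in a window of 501 bp around the summit, as was GC content. limma 3.58.1 in R 4.3.3 was fitted, without block or trend, to log2 fragments centred on each library's median, with Benjamini-Hochberg adjustment over 40433 regions, and was tested on simulated data. Other computing used Python 3.11.15, scipy 1.17.1 and pysam 0.24.0. Named regions are the members with most fragments, those with most fragments and a motif, those with the largest difference in each direction, those nearest to the limits of the rule, and the strongest of each gene list, and 2 of them are not reported here. The members and gene lists were chosen with earlier results of these data known. Alternatives were stricter peaks, lists of equal length, other distances, windows, scalings and fits, and each library left out.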

Additional observations from a re-analysis of the deposited data

How the results depend on the processing

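Of 172 alternative values, 37 moved beyond the spread or, for counts, beyond 1.5 times. The other 135 kept their direction and side of the threshold where tested, or moved by less than the spread where not. The members' median difference between matrices, 0.01 and not called, changed sign to -0.02 without stiff replicate 1. The number of members ran from 15748 to 22489, the log2 fragment ratio to acetylated regions from -1.40 to -1.04 and the AP-1 difference from them from 4.88 (window of 25 bp) and 8.16 (stiff H3K27ac list not used) to 11.6 percentage points. The members' AP-1 share was 44.9% with a p-JUN −log10 q of at least 10, 44.7% with lists of equal length, 49.2% with all 4 summits within 100 bp, 43.2% with stricter histone peaks, 20.6% in a window of 25 bp and 57.7% in one of 100 bp. Leaving out 1 library gave 43.1% to 44.1%. Their share of summit fragments, 34.9% as the mean of the libraries, was 30.2% with close summits, 39.9% with stricter histone peaks, 33.8% with no histone peak within 1 kb, 36.99% and 29.4% with coding starts at 1 and 10 kb, 28.8% with starts of all transcripts, 42.9% without the soft and 37.06% without the stiff H3K27ac list, and 35.1% to 36.3% without 1 library.

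The count of regions past an adjusted p of 0.05 between matrices, 0 in the reported limma fit, was 638 without centring (454 members), 5467 with a variance trend (2444 members) and 1671 with a mean of at least 50 fragments (908 members). With the replicate block it was 1492, of which 896 were members, 652 higher on stiff and 244 on soft. The deviations of same-numbered libraries correlated at 0.0508, so the numbers were not taken to pair them. Quantile scaling, the deposited fold, a crossed block (chosen after seeing the data) and leaving out any library gave 0. The members' median difference was 0.0669 on the log2 scale without centring and -0.02 to 0.03 without 1 library. The cause of these moves was not tested. Without H3K27ac replicates, and at 26 to 27 fragments for its median peak, weak acetylation at a member may have gone uncalled.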
